A study of Arabidopsis thaliana with 6 samples.

Results

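Nuclear photosynthesis genes were followed through the first stages of embryo growth in hybrids of Arabidopsis thaliana. The 48 genes, taken from 23874 genes with reads, were chosen by locus identifier for what they encode, with earlier results of these data known. They encode the small subunits of Rubisco and its activase (5 genes), the LHCB antenna of photosystem II (13 genes), the LHCA antenna of photosystem I (4 genes), subunits of photosystem I (10 genes) and of photosystem II (9 genes), plastocyanin, the Rieske protein and a subunit of the chloroplast ATP synthase (4 genes), and the protochlorophyllide oxidoreductases (3 genes). All 48 had reads in at least 1 library, 44 in all 6 libraries, and 46 had enough reads to enter the fit of stage and cross. Reads that tell the parental alleles apart were found for 31 of them, and 13 had enough to be tested for a difference between the parents.

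Photosystem II splits water, photosystem I reduces ferredoxin, and the cytochrome b6f complex and plastocyanin carry electrons between them while the ATP synthase uses the proton gradient that results. LHC proteins bind the chlorophyll that gathers light for each photosystem. Rubisco fixes carbon dioxide with the products, and protochlorophyllide oxidoreductase carries out the light-dependent step of chlorophyll synthesis. These genes lie in the nucleus, their products are imported into plastids, and they are best known from green leaves; Arabidopsis embryos green later than the stages measured here.

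Col-0 and Cvi-0, both inbred accessions, were crossed in both directions, with the mother named first, and each library held the poly(A) RNA of a pool of 20 hand-dissected, washed embryos after linear amplification. Embryos of 1 or 2 cells (called 1-cell/2-cell) were taken about 40 h after pollination, those of 8 cells at 64 h and those of about 32 cells at 78 h, each from both directions of the cross. There was 1 library for each stage and cross, so no group had a replicate, and the reciprocal crosses served as repeats of a stage. The p-values therefore rest on the variation that the fits leave over and say nothing of how repeated libraries of 1 group would vary, and a pool of whole embryos cannot tell fewer cells of a type from less RNA per cell.

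The libraries held 10299142 to 14805499 reads over genes and 1233554 to 1723728 allele reads, and a floor of 3 reads stood at 0.180 to 0.248 RPM (reads scaled by the authors to the total matched in a library). All 9 embryo markers, among them LEC1, ATML1 and KNOLLE, had reads in every library and summed to between 799 and 1199 RPM. Single markers moved within that sum. KNOLLE alone lay higher in both 32-cell than in both 1-cell/2-cell libraries (27% of all genes). In 6 (LEC2, WOX2, WOX8, WOX9, ATML1 and DRN) both lay lower (33.2% of all genes). The 10 seed coat markers summed to 40.4 and 35.6 RPM in 1-cell/2-cell embryos, 42.5 and 61.6 RPM in 8-cell embryos, and 27.99 and 101.9 RPM in 32-cell embryos, the first value of each pair being Col-0 x Cvi-0 here and below. TT4, BAN and TT18, enzymes of flavonoid synthesis, were the marker genes of the seed coat with most reads, while TT10 was at 0 in the 4 libraries before the 32-cell stage and TT2 at 0 in all 3 Col-0 x Cvi-0 libraries. The 8 endosperm markers, led by SUC5, FWA and AGL62, summed to 52.8 and 44.0 RPM, then 25.0 and 24.1 RPM, then 7.34 and 14.2 RPM, and MEA was at 0 in 5 of the 6 libraries. The 32-cell library from Col-0 x Cvi-0 stood apart from all others in the photosynthesis genes, and the counts, medians and calls between the first and the last stage are given without it as well.

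The 48 genes together took 436 and 468 RPM in 1-cell/2-cell embryos, 284 and 659 RPM in 8-cell embryos, and 1393 and 486 RPM in 32-cell embryos. Only the 32-cell library from Col-0 x Cvi-0 was high, and its reciprocal lay within the range of the earlier stages. Mean levels over the 6 libraries ranged from 0.109 to 44.5 RPM per kb of spliced transcript. RBCS1A (mean over the 6 libraries 44.5 RPM per kb), PSBX (44.4) and PSBW (43.1) stood highest and do not differ beyond their spread over libraries, and LHCA1 followed at 32.3. PORA (0.109), LHCB1.4 (0.155) and RBCS1B (0.619) stood lowest.

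**Figure D1:**
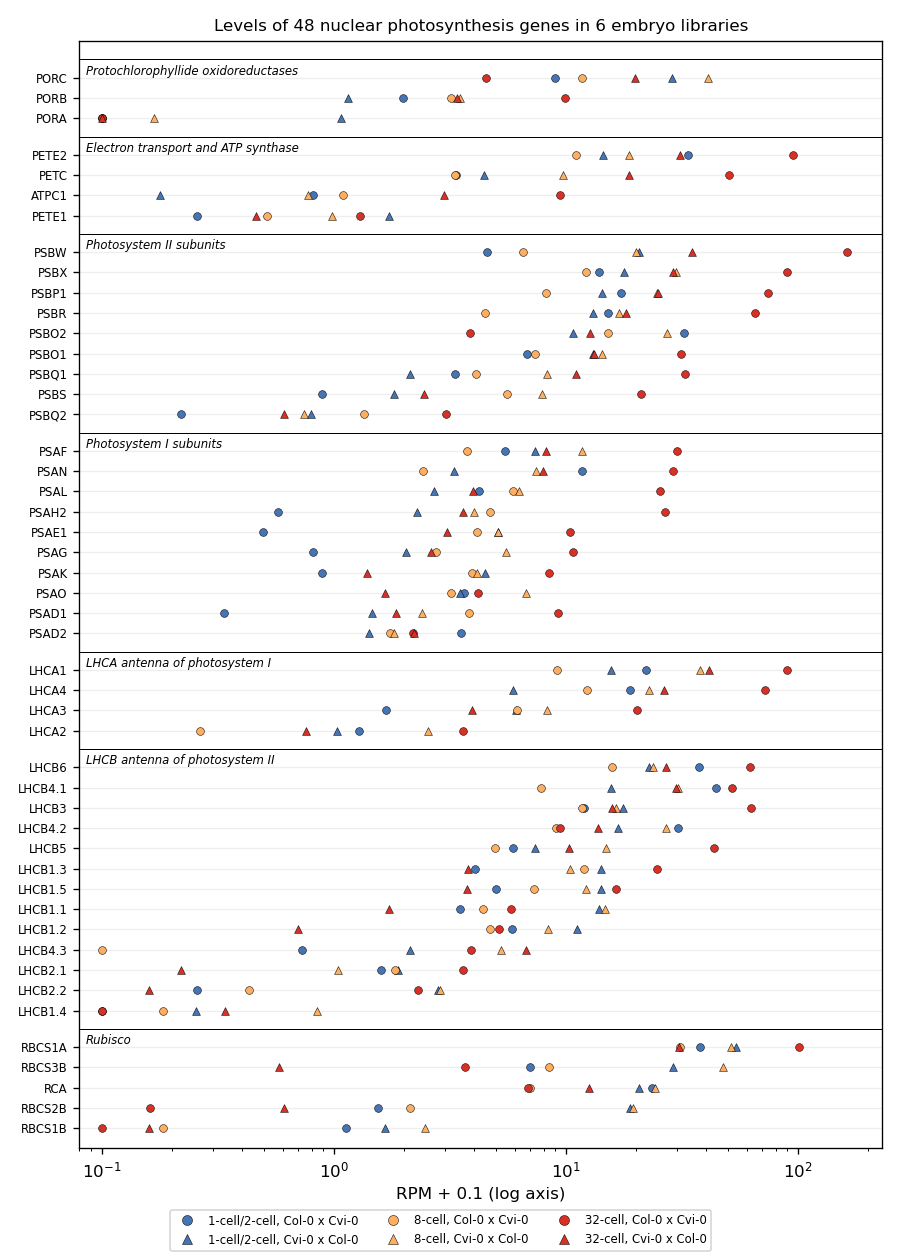
Level of each of the 48 genes (rows, by role) in each of the 6 libraries, as RPM plus 0.1 on a log axis; colour gives the stage and circle or triangle the cross, with 1 library per point. Red circles, the 32-cell library from Col-0 x Cvi-0, lie at the right for most antenna, photosystem and electron transport genes, while RBCS1B, RBCS2B and RBCS3B have their 32-cell points at the left.

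Between the 1-cell/2-cell and the 32-cell stage, 3 of the 46 tested genes rose and 1 fell past an adjusted p of 0.05 (edgeR quasi-likelihood test, Benjamini-Hochberg adjustment over all 17478 genes). Of all genes tested, 4.18% passed as higher and 3.6% as lower, so the counts of members lie near the background. The 3 genes that rose were PETC, ATPC1 and PSBQ1, in the electron transport chain, the ATP synthase and photosystem II, and the gene that fell was RBCS2B of Rubisco. The median log2 change of the 46 genes was 1.45, beside 0.0011 over all genes tested. An unadjusted p under 0.05 in edgeR was found in 17 of the 46, beside 4634 of all 17478 genes. That is also the background for such counts in the role groups below. In 18 of the 46, both 32-cell libraries lay above both 1-cell/2-cell libraries, which was so for 27% of all genes. In 6, RBCS1B, RBCS2B, RBCS3B, RCA, LHCB1.2 and LHCB4.2, both lay below, which was so for 33.2% of all genes. Without the 32-cell library from Col-0 x Cvi-0 the median log2 change of the 46 was -0.036. Its reciprocal alone lay above both 1-cell/2-cell libraries in 18 genes (37.8% of all genes) and below both in 14 (36.6% of all genes). Without the reciprocal the median log2 change was 2.59. Without the 1-cell/2-cell library from Col-0 x Cvi-0 the median over the members tested was 0.70, and without its reciprocal 1.82. Leaving out the 8-cell library from Col-0 x Cvi-0 gave 1.26, and leaving out its reciprocal 1.36.

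Rubisco's small subunit is encoded by RBCS1A on chromosome 1 and by RBCS1B, RBCS2B and RBCS3B on chromosome 5. RBCS2B (AT5G38420, chromosome 5, 15380907 to 15382071, minus strand) had 1.45 and 18.8 RPM in 1-cell/2-cell embryos, 2.02 and 19.3 RPM in 8-cell embryos, and 0.0615 and 0.511 RPM at the 32-cell stage. The 32-cell values lay below all 4 earlier ones in both crosses, and the Cvi-0 x Col-0 library was the higher at each stage. In the 32-cell library from Col-0 x Cvi-0 the gene had 1 read, under the floor of 3 reads, so the size of its fall is uncertain. The log2 change between the first and the last stage was -4.91 ± 0.72 (SE, edgeR adjusted p 0.0104), and the gene passed in each of the 6 fits that left out 1 library, but not in the fit with stage alone (adjusted p 0.0795). RBCS3B had 6.92 and 28.9, 8.34 and 47.2, then 3.57 and 0.480 RPM, and did not pass (edgeR log2 change -2.39 ± 1.18, adjusted p 0.242). RBCS1B had 1.02 and 1.55, 0.0826 and 2.36, then 0 and 0.0601 RPM, at or under the floor of 3 reads at the 32-cell stage, and did not pass either (adjusted p 0.126). RBCS1A, the most abundant of the group, took another course, with 37.7 and 53.8, 30.8 and 51.4, then 101 and 30.7 RPM. Its 32-cell library from Col-0 x Cvi-0 lay above all others. The reciprocal, at 30.69 RPM, was level with the lowest earlier library, at 30.80 RPM (edgeR adjusted p 0.559). RCA, the activase that frees Rubisco's active sites of sugar phosphates, had 23.3 and 20.5, 6.90 and 24.1, then 6.76 and 12.4 RPM, and did not pass.

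The RBCS genes of chromosome 5 share much of their sequence. Their coding sequences are 96.7 to 97.3% identical, against 89.9 to 90.1% with RBCS1A, and 38.0% of the 30-base windows of the RBCS2B transcript also occur in another gene. Since only uniquely matching reads were kept, RBCS2B, RBCS1B (19.2% of windows shared) and RBCS3B (25.5%) are measured from the rest of their transcripts, and their levels are uncertain.

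The 13 LHCB genes encode the chlorophyll-binding antenna of photosystem II, with LHCB1, LHCB2 and LHCB3 in the outer trimers and LHCB4, LHCB5 and LHCB6 as single inner proteins. None of the 12 tested passed in edgeR's comparison of the 32-cell with the 1-cell/2-cell stage, 1 had an unadjusted p under 0.05, and the median log2 change was 0.60. LHCB6, the highest by RPM, had 37.5 and 22.8, 15.7 and 23.7, then 62.1 and 26.8 RPM. LHCB4.1 had 44.3 and 15.5, 7.72 and 30.2, then 51.9 and 29.8 RPM. In both genes the 32-cell range overlapped the 1-cell/2-cell range. LHCB5 had 5.78 and 7.27, 4.83 and 14.8, then 43.3 and 10.2 RPM, so that both 32-cell libraries lay above both of the first stage. LHCB4.2 had 30.2 and 16.7, 8.998 and 26.9, then 9.28 and 13.7 RPM, both lower. The coding sequences of the LHCB1 copies are 86.8 to 96.4% identical and those of the LHCB2 pair 96.6%. These 7 genes share 24.1 to 40.0% of their windows with another gene, and their levels are uncertain. In the Cvi-0 x Col-0 cross 8 of the 12 were lower at the 32-cell than at the 1-cell/2-cell stage (49.7% of all genes), against 2 of 12 in the Col-0 x Cvi-0 cross (58.1% of all genes). Without the 32-cell library from Col-0 x Cvi-0 the median was -1.16.

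The 4 LHCA genes, the antenna of photosystem I, had positive changes with a median of 1.88 on the log2 scale, and 0 passed in edgeR (2 with an unadjusted p under 0.05). The median fold between the first and the last stage was 3.95 in Col-0 x Cvi-0 and 1.68 in Cvi-0 x Col-0, where 2 of the 4 were lower, and without the 32-cell library from Col-0 x Cvi-0 the median log2 change was 0.26. LHCA1 had 22.0 and 15.5, 9.08 and 37.8, then 89.5 and 41.3 RPM. LHCA4 had 18.7 and 5.83, 12.2 and 22.7, then 72.0 and 26.2 RPM (edgeR log2 change 2.19 ± 0.58, adjusted p 0.0615). Both genes lay higher in each 32-cell library than in either library of the first stage. LHCA3 had 1.57 and 5.98, 6.03 and 8.16, then 20.2 and 3.84 RPM, and LHCA2 had 1.18 and 0.934, 0.165 and 2.43, then 3.50 and 0.661 RPM. These overlapped between the stages, and LHCA2 shares 15.4% of its windows with another gene.

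Among the 10 subunits of photosystem I, 0 passed in edgeR (2 with an unadjusted p under 0.05), 9 had a positive change, and the median was 1.74 on the log2 scale. The median fold was 8.37 in Col-0 x Cvi-0 and 1.29 in Cvi-0 x Col-0, where 3 of the 10 were lower, and without the 32-cell library from Col-0 x Cvi-0 the median log2 change was 0.33. PSAF, the docking site of plastocyanin, had 5.35 and 7.26, 3.63 and 11.6, then 30.1 and 8.08 RPM. PSAN, which lies on the lumen side, had 11.6 and 3.19, 2.31 and 7.35, then 28.7 and 7.87 RPM. PSAF separated the first from the last stage and PSAN did not. PSAL had 4.13 and 2.60, 5.82 and 6.17, then 25.3 and 3.87 RPM. PSAE1, on the stromal side, had 0.394 and 4.98, 4.05 and 4.99, then 10.3 and 2.97 RPM. In both, the 32-cell library from Col-0 x Cvi-0 alone stood above the rest. The other 6 had means of 0.798 to 3.46 RPM at the first stage, and the Col-0 x Cvi-0 library was the higher of the 32-cell pair in 9 of the 10.

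Of the 9 subunits of photosystem II, 1 rose past the threshold, 8 had a positive change and the median was 1.80 on the log2 scale. The median fold was 6.52 in Col-0 x Cvi-0 and 1.39 in its reciprocal. With the 32-cell library from Col-0 x Cvi-0 left out, the median log2 change was 0.38. PSBQ1 (AT4G21280, chromosome 4, 11334352 to 11335815, plus strand), an extrinsic protein of the oxygen-evolving complex, had 3.23 and 2.02, 4.005 and 8.16, then 32.5 and 10.9 RPM. The stages did not overlap, in either cross the level was highest at the 32-cell stage, and the log2 change from the first stage was 3.14 ± 0.67 (SE, edgeR adjusted p 0.0335). Without the 32-cell library from Col-0 x Cvi-0 it was 2.04 with an adjusted p of 0.491, and without the 1-cell/2-cell library from Col-0 x Cvi-0 the adjusted p was 0.0599. PSBW, a small subunit, had 4.44 and 20.6, 6.44 and 19.998, then 162 and 34.7 RPM, the highest single value among the 48 genes. PSBX had 13.8 and 17.7, 12.1 and 29.6, then 89.7 and 28.9 RPM. Both 32-cell libraries lay above both of the first stage in these genes, and neither passed (edgeR adjusted p 0.0969 and 0.0976). The exception in direction was PSBO2, like PSBO1 a copy of the manganese-stabilizing protein, with 32.1 and 10.6, 15.1 and 27.2, then 3.75 and 12.6 RPM, while PSBO1 had 6.69 and 12.97, 7.27 and 14.2, then 31.3 and 13.2 RPM.

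All 4 genes of electron transport and the ATP synthase had positive changes, and 2 rose past the threshold. The median log2 change was 2.44, with a median fold of 10.4 in Col-0 x Cvi-0 and 3.25 in its reciprocal. With the 32-cell library from Col-0 x Cvi-0 left out, the median log2 change was 1.26. PETC (AT4G03280, chromosome 4, 1440146 to 1441863, plus strand) encodes the Rieske iron-sulfur protein of the cytochrome b6f complex and had 3.26 and 4.31, 3.22 and 9.61, then 50.4 and 18.6 RPM. Both 32-cell libraries lay above all 4 others, 15.4-fold over the first stage in Col-0 x Cvi-0 and 4.32-fold in Cvi-0 x Col-0. The log2 change was 3.36 ± 0.72 (SE, edgeR adjusted p 0.0333), and without the 32-cell library from Col-0 x Cvi-0 it was 1.88 (adjusted p 0.403). Without the 1-cell/2-cell library from Col-0 x Cvi-0 the adjusted p was 0.0733. ATPC1 (AT4G04640, chromosome 4, 2350498 to 2352025, minus strand), the gamma subunit of the chloroplast ATP synthase, had 0.708 and 0.0777, 0.991 and 0.674, then 9.28 and 2.88 RPM. Here too both 32-cell libraries lay above the other 4. The 1-cell/2-cell value of ATPC1 in Cvi-0 x Col-0 rested on 1 read, under the floor of 3 reads, so the size of its change is uncertain. The log2 change was 4.25 ± 1.02 (SE, edgeR adjusted p 0.0464), and the gene did not pass when either 1-cell/2-cell or either 32-cell library was left out (adjusted p 0.0671 to 0.650) or with stage alone. PETE2, the more abundant plastocyanin gene, had 33.4 and 14.3, 10.98 and 18.5, then 94.8 and 31.0 RPM, with overlapping stages (adjusted p 0.119).

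PORC had 8.89 and 28.4, 11.6 and 40.7, then 4.43 and 19.8 RPM, higher in Cvi-0 x Col-0 at each stage. PORB had 1.89 and 1.05, 3.10 and 3.41, then 9.77 and 3.27 RPM, so that it lay above the first stage in both later ones. Neither of these protochlorophyllide oxidoreductase genes passed (edgeR adjusted p 0.281 and 0.120), and PORA, the form known from dark-grown seedlings, was at 0 in 4 libraries.

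**Figure D2:**
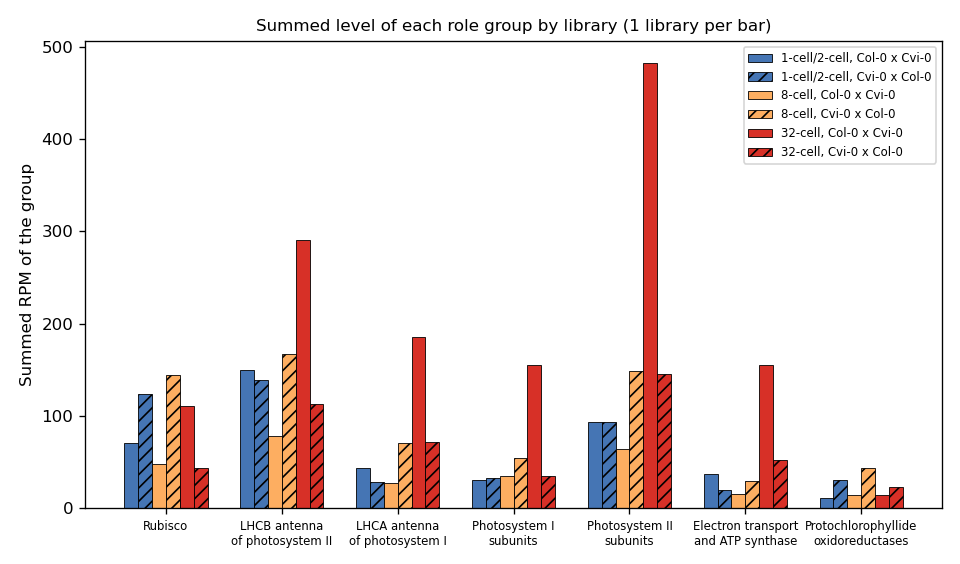
Summed RPM of each of the 7 role groups, with 1 bar per library, colour for stage and hatching for the Cvi-0 x Col-0 cross. Photosystem II subunits reach 482 RPM in the 32-cell library from Col-0 x Cvi-0 and 146 RPM in its reciprocal, and Rubisco is highest in the 8-cell library from Cvi-0 x Col-0 at 144 RPM.

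In the steps between neighbouring stages, edgeR called 0 of the 46 genes. For the first of these steps 1 gene had an unadjusted p under 0.05, beside 2267 of all 17478 genes. DESeq2 also called 0, and in edgeR 0.864% of all genes passed as higher and 0.235% as lower. The median log2 change was 0.34, and 8 genes (LHCA3, PSAD1, PSAG, PSAH2, PSAL, PSBQ1, PSBS and PORB) had both 8-cell libraries above both 1-cell/2-cell libraries, beside 16% of all genes. In 0 genes both 8-cell libraries lay below, beside 25.6% of all genes. For the second step, to the 32-cell stage, 11 genes had an unadjusted p under 0.05, beside 2064 of all 17478 genes. DESeq2 called 2 higher and 2 lower, and edgeR called 0% of all genes in either direction. The median log2 change was 0.78, 12 genes lay above in both libraries (24.2% of all genes) and 4 below (18.6% of all genes). The 4 were RBCS1B, RBCS2B, RBCS3B and PSBO2. Between the single libraries of that step, the median log2 ratio with 0.1 RPM added was 1.94 in Col-0 x Cvi-0 and -0.59 in Cvi-0 x Col-0. Over all genes it was 0.079 and 0.0073.

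The reciprocal crosses gave different courses. In Col-0 x Cvi-0, 33 of the 46 genes were more than 2-fold higher at the 32-cell than at the 1-cell/2-cell stage (17.5% of all genes) and 6 more than 2-fold lower (28.4%), with a median log2 ratio of 2.16 beside -0.25 over all genes. In Cvi-0 x Col-0, 9 were more than 2-fold higher (18.6% of all genes) and 12 lower (17.2%), with a median of 0.19 beside 0.0050. The crosses went in opposite directions for 16 of the 46, beside 28.7% of all genes. The ratios compare single libraries, the medians have 0.1 RPM added, and there is no test.

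**Figure D3:**
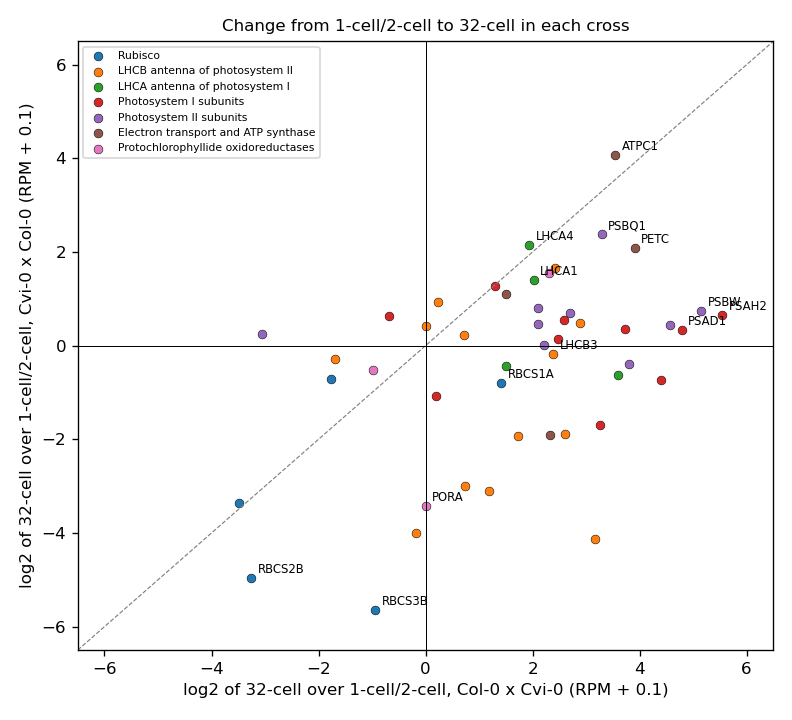
Log2 ratio of the 32-cell over the 1-cell/2-cell library in Col-0 x Cvi-0 (horizontal) and Cvi-0 x Col-0 (vertical) for each of the 48 genes, both after adding 0.1 RPM, with colours for role groups and a dashed line of equal change. Most genes lie right of 0 and below the dashed line, and ATPC1, PETC and PSBQ1 lie at the upper right.

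Within a stage, the 32-cell pair differed most. There 37 of the 46 genes were more than 2-fold higher in Col-0 x Cvi-0 than in Cvi-0 x Col-0, beside 4.9% of all genes, and 4 (RBCS1B, RBCS2B, PSBO2 and PORC) were more than 2-fold lower, beside 14.6% of all genes. The median log2 ratio of Cvi-0 x Col-0 over Col-0 x Cvi-0 was -1.73, beside 0.26 over all genes. At the 8-cell stage the order was the other way round. There 24 genes were more than 2-fold higher in Cvi-0 x Col-0 (26.6% of all genes) and 0 more than 2-fold lower (6.66% of all genes), with a median log2 ratio of 0.98 beside 0.33. At the 1-cell/2-cell stage 18 genes were more than 2-fold higher in Cvi-0 x Col-0 (12.5% of all genes) and 7 lower (13.8%). Over all stages edgeR called 0 of the 46 for the direction of the cross, and DESeq2 called 2. In edgeR 2 had an unadjusted p under 0.05 (RBCS2B and PORC, both higher with a Cvi-0 mother), beside 992 of all 17478 genes. Of all genes, edgeR called 0% as higher with a Cvi-0 mother and 0.00572% as lower. The direction of cross and the single library of each stage cannot be told apart, and the 32-cell library from Cvi-0 x Col-0 also had the highest sum of seed coat markers, whose part in these values was not tested.

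Promoters are shown for RBCS2B, the gene that fell, and for PETC and ATPC1, which rose and share no window with another gene. Each is the 300 bases before the annotated start, from the TAIR10.1 sequence of RefSeq, on the strand of the gene. Capitals mark 3 motifs known from promoters of light-regulated genes, the G-box CACGTG, the I-box GATAAG and the CCAATC element, searched on both strands so that CTTATC and GATTGG are the reverse forms. None of these motifs contains another.
RBCS2B, chr5:15382072-15382371, minus strand: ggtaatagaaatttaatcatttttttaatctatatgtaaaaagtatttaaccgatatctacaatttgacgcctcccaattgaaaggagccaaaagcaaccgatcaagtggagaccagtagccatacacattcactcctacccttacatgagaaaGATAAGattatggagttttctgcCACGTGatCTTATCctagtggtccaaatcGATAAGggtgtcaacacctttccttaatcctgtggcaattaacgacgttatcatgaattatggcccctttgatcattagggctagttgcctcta
PETC, chr4:1439846-1440145, plus strand: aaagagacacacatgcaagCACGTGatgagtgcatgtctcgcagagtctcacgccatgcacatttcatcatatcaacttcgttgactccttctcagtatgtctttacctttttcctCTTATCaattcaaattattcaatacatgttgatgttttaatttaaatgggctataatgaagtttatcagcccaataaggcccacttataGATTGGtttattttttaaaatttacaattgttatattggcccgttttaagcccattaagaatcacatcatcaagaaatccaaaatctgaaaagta
ATPC1, chr4:2352026-2352325, minus strand: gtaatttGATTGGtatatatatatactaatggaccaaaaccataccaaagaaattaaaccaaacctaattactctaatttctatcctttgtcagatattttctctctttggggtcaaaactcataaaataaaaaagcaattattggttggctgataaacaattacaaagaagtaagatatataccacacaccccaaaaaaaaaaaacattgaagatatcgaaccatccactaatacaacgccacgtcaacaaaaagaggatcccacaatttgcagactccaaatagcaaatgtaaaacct

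In RBCS2B the I-box began 146, 115 and 94 bases before the start and the G-box 123 bases before it. PETC held a G-box at 281, an I-box at 184 and a CCAATC element at 95 bases, and ATPC1 held a CCAATC element at 293 bases. Over the 48 promoters of the same length, 8 held the G-box (16.7%, beside 7.09% of 27443 promoters), 14 the I-box (29.2%, beside 14.5%) and 16 the CCAATC element (33.3%, beside 12.2%). These are matches of letters, not binding sites. The 8 promoters with a G-box include that of RBCS2B, which fell, and those of PSBQ1 and PETC, which rose.

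Genes of the same pathway outside the 48, given by the list they belong to, had the following counts between the 1-cell/2-cell and the 32-cell stage. Of all genes tested, 4.18% passed as higher and 3.6% as lower, and 4634 of 17478 had an unadjusted p under 0.05 in edgeR. Of 8 other genes of electron transport and the ATP synthase 2 rose. FD1, a leaf ferredoxin, had 50.9 and 61.7, 129 and 163, then 753 and 316 RPM (edgeR log2 change 3.33 ± 0.48, adjusted p 0.0100). FNR2, a ferredoxin-NADP reductase, had 0.118 and 0.0777, 0.743 and 7.49, then 22.3 and 14.8 RPM (edgeR log2 change 7.47 ± 1.23, adjusted p 0.0149). Both 1-cell/2-cell values of FNR2 lay under the floor of 3 reads, so the size of its change is uncertain. In both genes the 32-cell values lay above all others in both crosses, and both passed in each of the 6 fits that left out 1 library. Of 15 Calvin cycle genes 1 rose, GAPA2, a subunit of glyceraldehyde-3-phosphate dehydrogenase, at 1.42 and 2.33, 1.90 and 3.91, then 23.1 and 10.6 RPM (adjusted p 0.0342). Without the 32-cell library from Col-0 x Cvi-0 its adjusted p was 0.554, and without the 1-cell/2-cell library of that cross 0.0902. Of 12 tested genes of chlorophyll synthesis 2 rose, CHLG, the chlorophyll synthase, at 7.75 and 6.76, 9.70 and 16.0, then 36.5 and 33.5 RPM (adjusted p 0.0121), and CHLI1 of magnesium chelatase (adjusted p 0.0475). CHLG passed in each fit that left out 1 library, and CHLI1 did not without the 32-cell (0.506) or the 1-cell/2-cell (0.115) library from Col-0 x Cvi-0. No gene of these 3 lists fell, beside 3.6% of all genes. The lists of regulators (5 of 11 tested), plastid sigma factors (5 of 6) and plastid import proteins (8 of 8) had 0 called in edgeR (0, 0 and 1 with an unadjusted p under 0.05), and their genes with the smallest p were PIF3 (adjusted p 0.236), SIG6 (0.191) and TOC159 (0.128). In both single steps 0 genes of the 6 lists passed in edgeR. The smallest p in each list belonged to FBA1, FNR2, CHLG, GUN1, SIG5 and TOC159 in the first step (adjusted p 0.145 to 0.478) and to GAPA2, FD1, CHLG, GUN1, SIG6 and HSP93-V in the second (adjusted p 0.218 to 0.705). The regulators GLK1 and GLK2, which drive photosynthesis genes in leaves, had at most 0.461 and 1.17 RPM in any library and were not tested.

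**Figure D4:**
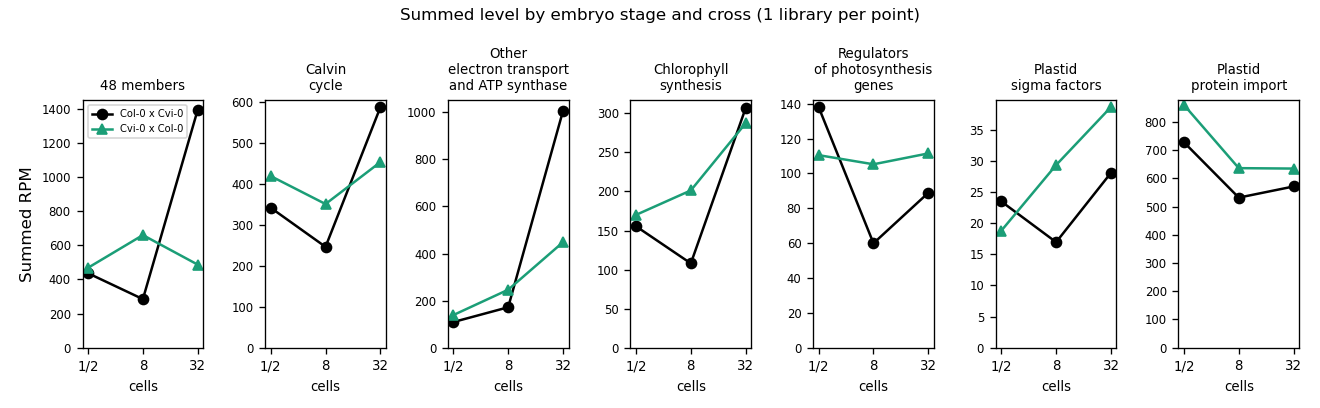
Summed RPM by stage (cells per embryo on the horizontal axis) for the 48 genes and for 6 other lists, with 1 point per library, black circles for Col-0 x Cvi-0 and green triangles for Cvi-0 x Col-0; each panel has its own axis from 0. The 48 genes part at the 32-cell stage, at 1393 against 486 RPM, while chlorophyll synthesis ends at 307 and 287 RPM.

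Reads that tell the alleles apart showed more maternal than paternal reads of these genes at the first stages. Summed over the genes, the mother's allele took 65.6% (95% Clopper-Pearson interval 61.6 to 69.4, 391 maternal and 205 paternal reads) and 68.2% (63.9 to 72.3) in 1-cell/2-cell embryos, 63.0% (56.8 to 68.8) and 61.8% (58.4 to 65.1) in 8-cell embryos, and 57.5% (54.5 to 60.5) and 48.3% (44.1 to 52.5) in 32-cell embryos. The same share over all genes was 53.7% and 46.2%, then 54.0% and 46.8%, then 53.5% and 47.1%. The 48 genes lay above it in all 6 libraries, by the least in both 32-cell libraries. Without LHCB4.2, the member with most allele reads, their shares were 58.7% (52.9 to 64.4) and 76.2% (71.1 to 80.9) in 1-cell/2-cell embryos. They were then 60.2% and 75.4% in 8-cell embryos, and 55.2% and 51.9% in 32-cell embryos. Before the 32-cell stage the crosses thus lay further apart without this gene. The intervals cover counting error only, since amplified RNA is not read as independent molecules. The seed coat markers had maternal shares of 94.8 to 100% in all libraries. In Col-0 x Cvi-0 their sum over successive stages was 40.4, 42.5 and 27.99 RPM. The maternal share of the photosynthesis genes there was 65.6%, 63.0% and 57.5%. In Cvi-0 x Col-0 the sum was 35.6, 61.6 and 101.9 RPM, and that share was 68.2%, 61.8% and 48.3%. The last share stood beside 47.1% over all genes. These are single libraries that differ in stage and cross, and the part of seed coat RNA in these shares was not tested.

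Gene by gene, the median maternal share of members with at least 10 allele reads was 67.9% at the 1-cell/2-cell stage (13 genes), 70.0% at the 8-cell stage (17 genes) and 54.0% at the 32-cell stage (20 genes), beside 50% over all genes at each stage. Where each library of a stage had 5 or more allele reads, the mother's reads exceeded the father's in both for 7 of 11 genes (16.7% of all genes), then 5 of 13 (16.9%), then 2 of 15 (15.6%). The father's exceeded the mother's in both for 1 (16.7%), 1 (16.8%) and 3 (14.4%).

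In the fit across all stages, edgeR called 0 of the 13 tested genes for a difference between the parents. Of the 13, 6 had an unadjusted p under 0.05, beside 301 of all 6988 genes. A positive fitted log2 ratio of mother over father was found in 10, and the median ratio was 0.72, beside 0.0058 over all genes. Of all genes 0.129% passed as higher from the mother and 0% as lower, and DESeq2 called 1 of the 13, RBCS2B. Within stages edgeR called 0 of the 13 in each of the 3. Of all genes it called 0.0859% as higher from the mother and 0.0572% as lower in 1-cell/2-cell embryos, 0.1% and 0% in 8-cell embryos, and 0.0429% and 0% in 32-cell embryos. Of those 13, 0 passed for the change of the parent effect between stages (0% of all genes), with 1 gene, PSAF, at an unadjusted p under 0.05. The maternal shares below are thus descriptions with their counting intervals.

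RBCS2B had the most one-sided reads. Mother and father had 8 and 3 reads in the first 1-cell/2-cell library and 55 and 1 in the second, then 15 and 0 with 66 and 0 among 8-cell embryos, then 0 and 0 with 1 and 0 among 32-cell embryos. In each of the 4 earlier libraries the mother's allele led, whichever accession it was. Against a floor of 3 reads over the stage, the mother's allele was at least 27.0-fold higher at the 8-cell stage; against 3 reads in each library the bounds were 5-fold in Col-0 x Cvi-0 and 22-fold in Cvi-0 x Col-0. Over all stages 145 of 149 reads were maternal (97.3%, 93.3 to 99.3), and edgeR gave a log2 ratio of 4.60 ± 0.79 (SE) with an adjusted p of 0.0581, which was 0.00599 in DESeq2. The reads came from 2 variants, 1 of which held 94.6% of them. RCA, its neighbour in role, had 70 and 37 reads, 57 and 43, then 19 and 33, and at the 8-cell stage its crosses went opposite ways (3 and 18 against 54 and 25).

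Antenna genes differed among themselves. LHCA2 had 8 reads from the mother and 0 from the father in the first 1-cell/2-cell library and 10 and 0 in the second, then 0 and 0 with 34 and 2 among 8-cell embryos, then 15 and 15 with 7 and 5 among 32-cell embryos. Against a floor of 3 reads in each library, the mother's allele was at least 2.67-fold and 3.33-fold higher at the first stage. LHCA3 had 0 and 0 with 8 and 0, 2 and 0 with 13 and 1, then 30 and 16 with 1 and 1 reads. In both genes paternal reads were few before the 32-cell stage and present at it. The early reads of LHCA3 and the 8-cell reads of LHCA2 came mainly or wholly from Cvi-0 x Col-0, where the mother and the Cvi-0 allele cannot be told apart. LHCA1 took another course, with 7 and 15, 20 and 12, then 62 and 40 reads. LHCB4.1 had 93 and 51, 73 and 40, then 155 and 172 reads. LHCB5 had 19 and 9, 23 and 17, then 114 and 59 reads, with the Col-0 allele leading in all 8-cell and 32-cell libraries. LHCB6 had 23 and 25, 23 and 18, then 32 and 57 reads, the one of these with an interval below 50% at the 32-cell stage (26.1 to 46.8), from 20 and 44 reads in Col-0 x Cvi-0 and 12 and 13 in its reciprocal.

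In photosystem I, PSAF had 26 and 13, 55 and 9, then 96 and 85 reads, so that its share stood at 66.7%, 85.9% (75.0 to 93.4) and 53.0% (45.5 to 60.5). PSAE1 had 1 and 5 reads in the first 1-cell/2-cell library and 28 and 0 in the second, then 13 and 13 with 38 and 4 among 8-cell embryos, then 52 and 31 with 19 and 6 among 32-cell embryos. Its mother's allele led in all 3 Cvi-0 x Col-0 libraries but only in the 32-cell library of the other cross. PSAL had 0 and 3 with 7 and 0, 9 and 0 with 6 and 1, then 27 and 7 with 1 and 2 reads. PETC, which rose, had 2 and 0 over the 1-cell/2-cell stage and 2 and 5 over the 8-cell stage, too few for a share. At the 32-cell stage it had 24 and 18 reads in Col-0 x Cvi-0 (57.1% maternal, 41.0 to 72.3) and 2 and 9 in Cvi-0 x Col-0 (18.2%, 2.28 to 51.8), with the Col-0 allele ahead in both.

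**Figure D5:**
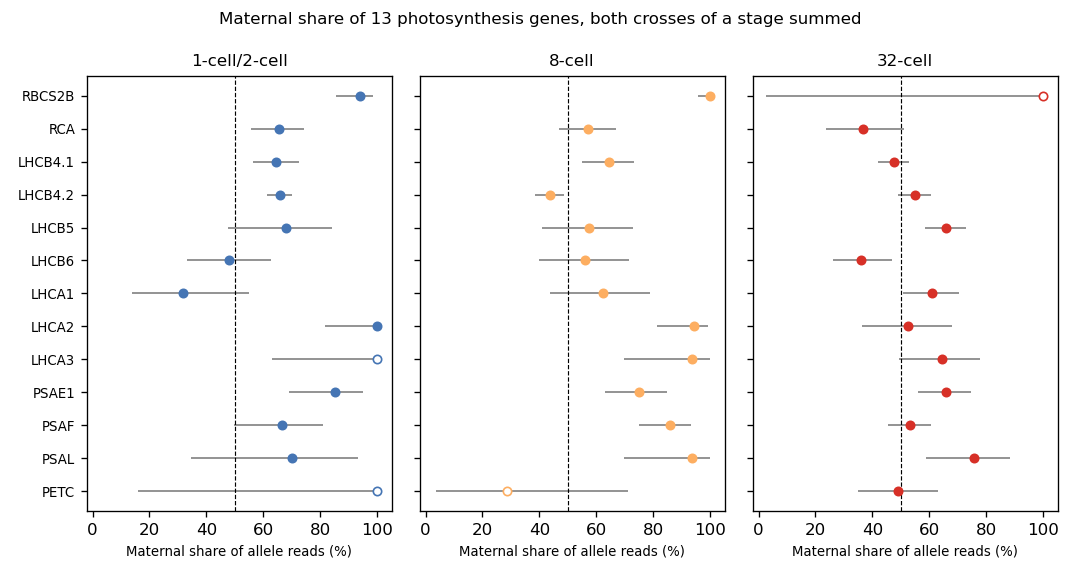
Maternal share of the allele reads (%) for the 13 tested genes at each stage, both crosses summed, with exact 95% binomial intervals as bars; open circles rest on fewer than 10 reads and the dashed line is 50%. LHCA2, LHCA3 and RBCS2B lie near 100% at the first stages, and most genes lie nearer 50% at the 32-cell stage.

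For the accession of the allele, 1 of the 13 genes passed as higher from Col-0 and 0 as lower, beside 13.7% and 6.81% of all genes. LHCB4.2 (AT3G08940, chromosome 3, 2717557 to 2718923, plus strand) had 737 reads of the Col-0 and 419 of the Cvi-0 allele, which gave a log2 ratio of 0.90 ± 0.19 (SE, edgeR adjusted p 0.00449). By mother and father these were 216 and 82 in the first 1-cell/2-cell library and 103 and 84 in the second, then 53 and 23 with 110 and 188 among 8-cell embryos, then 87 and 25 with 76 and 109 among 32-cell embryos. The Col-0 allele led in 5 of the 6 libraries, the exception being 1-cell/2-cell Cvi-0 x Col-0. Of its 17 variants 1 had 142 Col-0 and 0 Cvi-0 reads. Without that variant 58.7% of the reads were from Col-0 against 63.8% with it. A test without it was not run, and the choice of this variant was made after seeing its reads. The other variants did not all lean to Col-0. The variant with most reads had 327 Col-0 and 149 Cvi-0 reads, and 1 with fewer had 51 and 89. PSAE1 leaned to Cvi-0 without passing (edgeR log2 ratio -1.55 ± 0.52, adjusted p 0.0526), and 1 of its 6 variants had 20 reads from 1 accession.

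Annotated genes overlap 15 of the 48 on the other strand, among them RCA, LHCB4.2, LHCB6, LHCA4, PSAE1, PSBR and PORC. The libraries kept the strand, but whether the counting used it is not given in the sources used here, so reads of those partners may be included. PSAD2 and PSBP1 overlap a gene on the same strand. Of the 48 transcripts, 26 share no 30-base window with another gene, and 11, all RBCS, LHCB1, LHCB2 or LHCA2 genes, share more than 10% of theirs.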

How the data were processed

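Libraries were strand-specific, per the labels' protocols. Per the series' design text, the authors mapped reads with Bowtie to TAIR10 and to a version of it with Cvi-0 variants put in, and kept perfect, unique matches. No version of Bowtie and no counting program is named in the sources. Reads per gene, which the authors deposited in steps of 0.5, were treated as estimated counts and rounded to whole numbers. Per the file headers, the tables also hold counts of reads for each allele, gene reads as RPM, which the authors scaled to each library's total of matched reads, and lists of reads per variant. A further 30 columns restate these measures and were left out. A gene absent from a library was taken as 0 there. Perfect matching to an edited genome can lose Cvi-0 reads at variants not in the list, and so raise the share of Col-0 alleles.

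Gene reads were fitted with stage and cross as terms by glmQLFit and glmQLFTest of edgeR 4.0.16 under R 4.3.3, filterByExpr and TMM scaling (factors 0.855 to 1.11), over 17478 genes, with 2 residual degrees of freedom and a biological coefficient of variation of 42.9%. Allele counts were fitted for 6988 genes averaging 10 or more allele reads in a library, on library, genotype of the allele and parent (4 residual degrees of freedom, 30.9%) or parent within stage (2 residual degrees of freedom, 32.0%), and the library's total of allele reads as offset. Adjustment was by Benjamini-Hochberg over all genes fitted, at 0.05. Standard errors are the log2 change divided by the square root of F. Alternatives were DESeq2 1.42.0, its size factors, no filter, stage alone, TMM offsets, a minimum of 2 allele reads, and leaving out each library; the role medians and pathway genes under these were added after seeing the data. Each contrast of the edgeR fits was tested on simulated data, and the alternatives were not. Known changes were planted for all but the parent contrasts within the 1-cell/2-cell and the 32-cell stage. Those were checked for false calls only. Shares have exact Clopper-Pearson intervals at 95%. Reads of 1 library give 1 value per group, and depth was 10299142 reads or more per library.

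All 48 members and 23747 of 23874 genes matched the TAIR10.1 annotation of RefSeq, from which names, positions, promoters and shared windows were read. Values in every library are given for members past the threshold in any edgeR fit over all 6 libraries, members tested for the parent effect, and the 2 members of each role group with the highest mean RPM. A few others were chosen after their values were seen: RBCS1B, PSBO1, PORA and the genes named only in counts. The members, lists and tests were chosen with earlier results of these data known.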

Additional observations from a re-analysis of the deposited data

Results flagged for a closer look

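In 3 role groups the summed RPM of the 32-cell over the 1-cell/2-cell stage went opposite ways in the reciprocal crosses, each with 1 library per stage. For Rubisco the log2 ratio was 0.66 in Col-0 x Cvi-0 and -1.48 in Cvi-0 x Col-0, a difference of -2.14. Only RBCS1A itself went opposite ways, at 2.67-fold and 0.571-fold. RBCS1B, RBCS2B, RBCS3B and RCA were lower in both crosses. For the LHCB antenna it was 0.95 and -0.31, a difference of -1.26. For the protochlorophyllide oxidoreductases it was 0.39 and -0.40, a difference of -0.80. There PORB was higher in both crosses (5.18-fold and 3.12-fold) and PORC lower in both (0.498-fold and 0.695-fold), so the sums reflect the mix of genes. These differences between the crosses were not tested.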

How the results depend on the processing

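No paired analysis was possible because each group holds 1 library and the labels give no replicate numbers that pair samples. The cross was a term of the stage fit. Across settings, 141 member counts stayed within 1.5 times and 36 did not, and no called gene changed direction. Medians were added after seeing the data. Without the 32-cell library from Col-0 x Cvi-0 the median log2 change between the first and the last stage turned from 1.45 to -0.036 over the 46 genes and from 0.60 to -1.16 in the LHCB antenna, their lowest values with 1 library left out. The highest were 2.59 and 1.44, with its reciprocal left out. With no filter, which lets PORA in, that of the protochlorophyllide oxidoreductases turned from 0.78 to -0.61. Between the first and the last stage, 3 genes passed as higher, 11 in DESeq2, 9 with no filter, and 0 to 21 when 1 library was left out. As lower, 1 passed, 0 with stage alone and 1 to 3 with 1 library left out. From the 8-cell to the 32-cell stage 0 passed as higher (DESeq2 2, 0 to 13 with 1 library left out) and 0 as lower (DESeq2 2, no filter 1, 0 to 2 with 1 library left out). Between the first stage and the 8-cell stage 0 passed as higher, and 0 to 1 did with 1 library left out. For a Cvi-0 mother 0 passed as higher, 2 in DESeq2 and 0 to 3 with 1 library left out. For the mother's allele 0 passed, 1 in DESeq2, 1 with a minimum of 2 allele reads and 0 to 1 with 1 library left out, and at the 8-cell stage 0, 1 with that minimum and 0 to 1 with 1 library left out. For a Cvi-0 allele 0 passed, 1 in DESeq2, 1 with TMM offsets, 2 with the lower minimum and 0 to 1 with 1 library left out. The cause was not tested. Shares of all genes are given for the main fits only, so the counts under other settings have no background beside them. Without RBCS1A the mean summed level at the 1-cell/2-cell stage was 406 RPM instead of 452 RPM. The mean of the maternal shares of both 8-cell libraries was 62.4%, and 67.8% without LHCB4.2 (60.2% in Col-0 x Cvi-0 and 75.4% in Cvi-0 x Col-0). The median over members, with both libraries summed, was 70.0%. Low allele reads limit most shares: 17 of the 48 genes had none. A left-out library leaves a stage with 1 library, which is then assumed to vary like the others.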
